A study of Mus musculus with 10 samples.

Results

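The 9 endoderm transcription factor genes Sox17, Sox7, Foxa1, Foxa2, Foxa3, Hnf4a, Hhex, Prox1 and Pdx1 were read by their symbols from the count files, which list 24500 genes. The study is a ChIP-seq experiment in E14 mouse embryonic stem (ES) cells, of a strain given as 12910la, with antibodies against H3K27me3 and against EZH2. The control group is wild-type, and the ex14D group carries a CRISPR-Cas9 insertion or deletion in exon 14 of Ezh2, which the labels call an Ezh2 knock-out of exon 14 and which, by the study's methods, leaves the exon 14 deleted form of EZH2 as the only functional one. Each genotype has 2 H3K27me3 libraries, 2 EZH2 libraries and 1 input library of chromatin sequenced without an antibody. The labels do not say whether replicates are separate cultures or whether the ex14D cells are 1 clone, so p-values measure only the spread between these libraries. ChIP counts cannot check the genotype, and RNA of the 9 genes was not measured in these libraries.

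EZH2 is the methyltransferase of Polycomb repressive complex 2 (PRC2), and the mark it writes, trimethylation of lysine 27 on histone H3 (H3K27me3), covers the promoters of many developmental regulators in ES cells while these genes are silent. The 9 factors belong to the endoderm, the germ layer of gut, liver and pancreas. SOX17 and SOX7 are related SoxF factors of early definitive and extraembryonic endoderm. FOXA1, FOXA2 and FOXA3 are forkhead factors that bind closed chromatin in foregut endoderm, HHEX, PROX1 and HNF4A act in foregut and liver, and PDX1 specifies the pancreas.

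The promoters of 7 of the 9 genes had an entry in the RefSeq promoter table of build GRCm38.p6, and 4 are shown. They were chosen after their values were seen, as the promoters richest (Hhex) and poorest (Hnf4a) in CG dinucleotides and those of the Foxa genes highest (Foxa2) and lowest (Foxa3) in H3K27me3. CG, which reads the same on both strands, is in capitals, and the sequences run 5′ to 3′ over the 250 bases before the annotated start. Foxa2 is at chr2:148046970-148047219 on the minus strand, Hhex at chr19:37434591-37434840 on the plus strand, Foxa3 at chr7:19023540-19023789 on the minus strand, and Hnf4a at chr2:163506607-163506856 on the plus strand.
Foxa2: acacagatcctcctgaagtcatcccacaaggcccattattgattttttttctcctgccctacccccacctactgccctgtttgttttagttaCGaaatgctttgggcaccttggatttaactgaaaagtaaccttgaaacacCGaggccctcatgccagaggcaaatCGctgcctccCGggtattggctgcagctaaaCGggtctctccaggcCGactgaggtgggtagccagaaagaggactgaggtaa
Hhex: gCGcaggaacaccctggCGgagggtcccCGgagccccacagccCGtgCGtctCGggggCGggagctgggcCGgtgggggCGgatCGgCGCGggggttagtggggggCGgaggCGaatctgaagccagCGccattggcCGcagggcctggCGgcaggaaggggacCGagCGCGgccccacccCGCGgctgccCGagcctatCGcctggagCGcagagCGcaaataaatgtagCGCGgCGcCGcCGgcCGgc
Foxa3: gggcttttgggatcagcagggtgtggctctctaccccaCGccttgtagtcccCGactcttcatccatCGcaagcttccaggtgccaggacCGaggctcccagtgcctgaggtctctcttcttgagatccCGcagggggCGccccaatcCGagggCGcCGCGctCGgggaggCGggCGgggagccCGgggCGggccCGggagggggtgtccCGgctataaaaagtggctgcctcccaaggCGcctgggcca
Hnf4a: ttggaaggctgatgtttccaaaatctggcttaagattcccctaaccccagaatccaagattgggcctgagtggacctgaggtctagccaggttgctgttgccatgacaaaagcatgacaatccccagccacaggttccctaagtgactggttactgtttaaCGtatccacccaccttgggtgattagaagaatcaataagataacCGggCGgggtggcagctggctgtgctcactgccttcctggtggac

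The Foxa2 stretch held 6 CG, the Hhex stretch 32, the Foxa3 stretch 18 and the Hnf4a stretch 3. Of the 32851 promoters of the table, 92.1% held at least 1 CG and 37.8% held 10 or more, with a median of 6. Foxa2 has 2 further RefSeq starts, 1021 and 1505 bases downstream, whose stretches held 20 and 13 CG. The Prox1, Foxa1 and Pdx1 stretches held 20, 21 and 10.

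Per library, 409371 to 1450937 reads of H3K27me3 or input and 13628137 to 18403892 reads of EZH2 were on genes. The H3K27me3 and input reads were counted in a window of 1 kb on the most 5′ start of each gene. Levels of different genes are then per equal length where the whole window was counted. Some listed genes had far fewer input reads than the median gene. In the control and ex14D inputs, Gata6 had 0.0 and 2.4 CPM and Lhx1 had 7.33 and 4.8. H3K27me3 levels of such genes cannot be set beside those of others, and the cause was not tested. The EZH2 reads rose with gene length and are compared between genes per kb. Counts are given in CPM, scaled so that the genes of a library sum to 1000000. The median gene had 8.96 to 11.8 CPM with the H3K27me3 antibody and 43.2 to 44.0 in input. ChIP counts do not measure expression and so cannot check the label of ES cells. Of 12 ES cell markers, 5 were lower and 3 higher than input in H3K27me3 in control by edgeR, Klf4 and Klf2 among the latter. By DESeq2, 1 was lower and 2 were higher. Of all 20681 genes tested by edgeR, 4401 were lower and 5968 (28.9%) higher.

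In control cells, H3K27me3 was high at 5 of the endoderm factors, intermediate at Hhex and Pdx1 and low at Foxa3 and Hnf4a. Foxa2 had 434 and 402 CPM in the 2 control libraries, a mean of 418 ± 22.5 (SD, n = 2), against 36.6 and 50.4 in the inputs. Sox17 followed with 434 and 398 CPM, against inputs of 63.5 and 55.2. Both genes lay at the 98.7th percentile of the 24500 genes by their control mean, far above either input. Sox7 had 379 and 376 CPM (inputs 51.3 and 43.2). Foxa1 had 347 and 391 (inputs 46.4 and 62.4), and Prox1 had 369 and 309 (inputs 39.1 and 64.8). The ranges of Foxa2 and Sox17 overlapped, those of Sox7, Foxa1 and Prox1 overlapped in turn, and only the step from Sox17 to Sox7 was free of overlap.

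Hhex, a homeobox gene of the anterior endoderm, had 111 and 161 CPM in control cells, and Pdx1 had 103 and 157. These ranges overlapped each other and lay below the lowest value among the 5 higher genes, 309 CPM. The inputs were 46.4 and 52.8 CPM at Hhex and 34.2 and 45.6 at Pdx1. Foxa3 had 32.0 and 50.1 CPM, next to inputs of 34.2 and 31.2, and Hnf4a, a nuclear receptor of hepatocytes, had 21.9 and 18.1, below inputs of 24.4 and 60.0. The Hnf4a values rest on 13, 17, 9 and 19 reads in the control and ex14D libraries. Neither range overlapped that of its neighbour in the order of levels. By their control mean, Foxa3 stood at the 81.0th and Hnf4a at the 67.7th percentile of all genes.

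**Figure D1:**
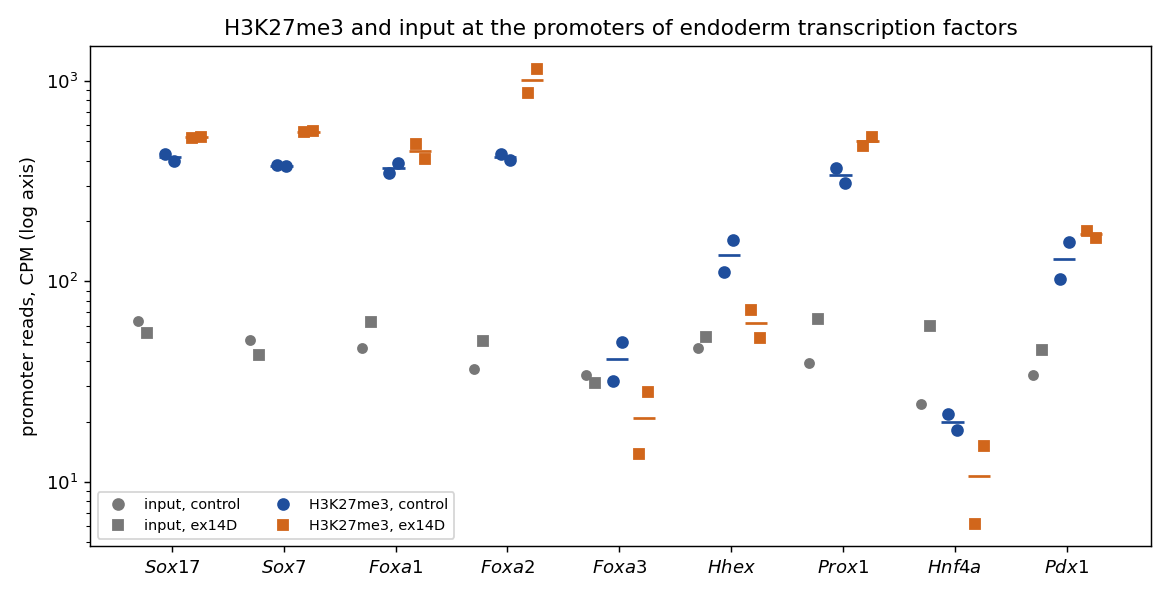
Promoter reads of the 9 genes in CPM (log axis). Grey points are the 2 inputs, blue circles the 2 control and orange squares the 2 ex14D H3K27me3 libraries, and short bars are means of 2. The 2 ex14D values of Foxa2, 865 and 1150, are the highest in the plot, and those of Hhex, 72.4 and 52.1, lie below both control values.

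Tested against both inputs taken as 1 group (edgeR's quasi-likelihood test with TMM scaling, which sets the libraries to a common level of most genes, and Benjamini-Hochberg adjustment over 20681 genes), 8 of the 9 endoderm factors were higher in H3K27me3 in control cells and 8 in ex14D cells. Of all genes tested, 28.9% were higher in control and 23.8% in ex14D. The log2 difference in control ran from 1.89 ± 0.38 (SE) at Foxa3 to 4.78 ± 0.27 at Foxa2, and in ex14D from 1.20 ± 0.39 at Foxa3 to 6.40 ± 0.27 at Foxa2. Hnf4a did not pass, with a log2 difference of 0.42 ± 0.42 (edgeR adjusted p = 0.416) in control and -0.14 ± 0.42 (edgeR adjusted p = 0.803) in ex14D. Foxa3 passed with an edgeR adjusted p of 2.78e-05 in control and 0.0118 in ex14D. The Foxa3 and Hnf4a results depend on the scaling. With library sizes over gene rows only, Foxa3 fell to 0.37 (edgeR adjusted p = 0.366) in control and -0.66 (edgeR adjusted p = 0.114) in ex14D, Hnf4a was lower than input in both (-1.10 and -2.01), and Hhex in ex14D was 0.33 (edgeR adjusted p = 0.327). Without ex14D replicate 2, Foxa3 in ex14D was 0.63 (edgeR adjusted p = 0.301), and DESeq2 did not call it either (1.33, adjusted p = 0.0935), so that 7 members were higher.

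In ex14D cells, H3K27me3 at the promoter relative to other genes was higher at 6 of the 9 endoderm factors. These 6 were Sox17, Sox7, Foxa1, Foxa2, Prox1 and Pdx1, and the rise was largest at Foxa2. Of the 14883 genes tested by edgeR's quasi-likelihood test between the 4 H3K27me3 libraries, 5.83% were higher and 3.25% lower in ex14D. These shares are over marked and unmarked genes together, and the share among genes with an H3K27me3 peak was not computed. Promoter windows held 5.65% and 5.98% of the reads in the control H3K27me3 libraries and 7.58% and 6.86% in the ex14D libraries. Whether this difference contributes to the rises was not tested. None of the 9 passed in the lower direction, where 1 (Hhex) had an unadjusted edgeR p under 0.05 and DESeq2 called 0. The median log2 fold change of the 9 was 0.78, against -0.03 over all genes tested. All changes are relative to the other genes of a library. The sources used here name no spike-in, so the counts do not measure the total H3K27me3 of the cells, and a relative rise can go with a fall, a rise or no change in the amount of the mark at a promoter.

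Foxa2, which patterns foregut and floor plate and opens chromatin for later endoderm factors, had 434 and 402 CPM in control and 865 and 1150 in ex14D. The lowest ex14D value lay well above the highest control value. Relative to other genes, the log2 fold change was 1.72 ± 0.21 (SE), a factor of 3.3 with an edgeR adjusted p of 3.21e-06. Foxa2 passed the threshold under each of the 11 alternative settings tried, with log2 fold changes of 1.27 to 1.92.

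The SoxF pair rose by less. Sox17 had 434 and 398 CPM in control and 520 and 525 in ex14D, a log2 fold change of 0.78 ± 0.20 (edgeR adjusted p = 0.00953). Sox7 had 379 and 376 CPM in control and 555 and 561 in ex14D, a log2 fold change of 1.01 ± 0.20 (edgeR adjusted p = 0.000768). In neither gene did the groups overlap, and the replicates of each ex14D pair lay closer together than the genotypes. The ratio of Foxa2 to Sox17 reads, which no scaling of the libraries can change, was 1.0 and 1.01 in control and 1.66 and 2.2 in ex14D, against 0.577 and 0.913 in the inputs.

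Prox1, a homeobox gene of liver and lymphatic precursors, had 369 and 309 CPM in control and 472 and 526 in ex14D, a log2 fold change of 1.01 ± 0.20 (edgeR adjusted p = 0.00114). Foxa1 had 347 and 391 CPM in control and 482 and 409 in ex14D, a log2 fold change of 0.72 ± 0.20 (edgeR adjusted p = 0.0182). The gap between the Foxa1 groups, from 391 to 409 CPM, was smaller than the distance between replicates in either genotype. Pdx1 had 103 and 157 CPM in control and 179 and 165 in ex14D, a log2 fold change of 0.84 ± 0.24 (edgeR adjusted p = 0.0215). Here too the groups came close, at 157 and 165.

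Hhex, Foxa3 and Hnf4a did not pass the test and had lower values in ex14D. Hhex had 111 and 161 CPM in control and 72.4 and 52.1 in ex14D, a log2 fold change of -0.69 ± 0.27 (edgeR adjusted p = 0.119). Foxa3 had 13.8 and 28.0 CPM in ex14D (log2 fold change -0.57 ± 0.38, edgeR adjusted p = 0.431), and Hnf4a 6.2 and 15.2 (log2 fold change -0.46 ± 0.44, edgeR adjusted p = 0.627). Pdx1 and Hhex, which were alike in control, separated: the ratio of Pdx1 to Hhex reads was 0.924 and 0.974 in control and 2.48 and 3.17 in ex14D, with 0.737 and 0.864 in the inputs. In CPM over gene rows, both ex14D values exceeded both control values for 6 members, against 9.1% of the genes tested, and lay below both for the other 3, against 51.2% of genes.

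Several of these calls depend on the scaling and on having 2 libraries a group. CPM over gene rows gives smaller rises than the fit, since the median gene lay at -0.47 on that log2 scale. With library sizes over gene rows only, 3 members were higher (Sox7, Foxa2 and Prox1) and Hhex was lower (-1.14, edgeR adjusted p = 0.00765). With all counted reads as library size 4 were higher, since Foxa1 (0.59, edgeR adjusted p = 0.0568) and Pdx1 (0.70, edgeR adjusted p = 0.164) no longer passed. Without control replicate 2 only Foxa2 passed, without ex14D replicate 1 only Sox7, Foxa2 and Prox1, without ex14D replicate 2 only Sox7 and Foxa2, and without control replicate 1 Sox17, Sox7, Foxa2 and Prox1 were higher and Hhex lower (-0.94, edgeR adjusted p = 0.0123). The log2 fold changes stayed positive when any library was left out, at 0.67 to 0.82 for Sox17, 0.96 to 1.03 for Sox7, 0.61 to 0.84 for Foxa1, 0.84 to 1.11 for Prox1 and 0.56 to 1.15 for Pdx1, in fits with 1 library in a group.

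**Figure D2:**
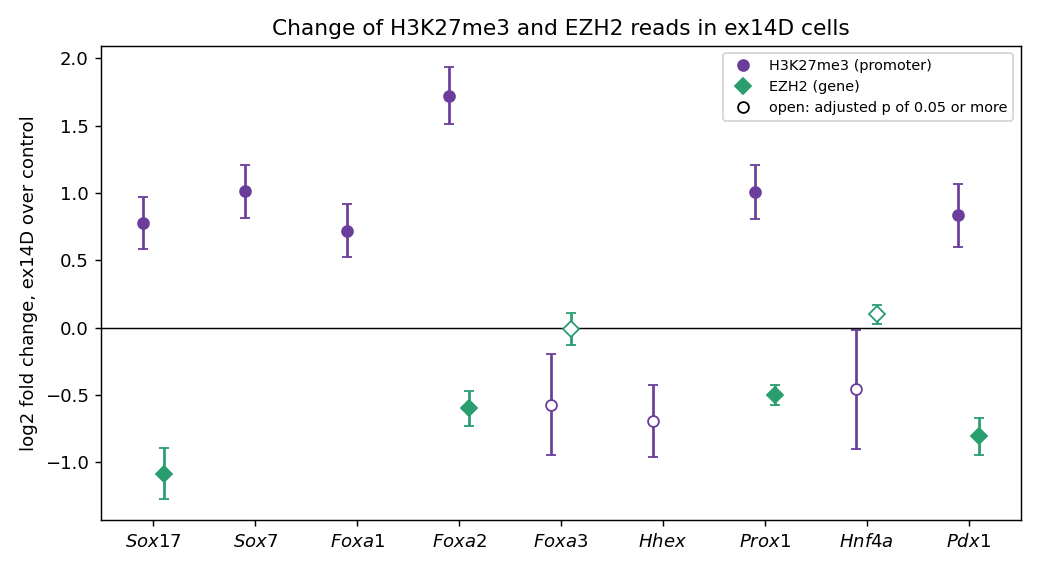
Fitted log2 fold change of ex14D over control with its standard error, for promoter H3K27me3 (circles) and gene EZH2 (diamonds) at the 9 genes, from 2 libraries a group. Filled symbols have an edgeR adjusted p under 0.05. Sox17, Foxa2, Prox1 and Pdx1 have a filled circle above 0 and a filled diamond below 0.

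EZH2 reads on the gene were lower in ex14D cells at 4 endoderm factors, Sox17, Foxa2, Prox1 and Pdx1, all of which were among the 6 with higher promoter H3K27me3. Of 13401 genes tested in the 4 EZH2 libraries (edgeR's quasi-likelihood test), 7.88% were lower and 0.0522% higher. Of the 9 members 6 could be tested, and none was higher in edgeR, in DESeq2 or at an unadjusted edgeR p under 0.05 (0 genes each). Their median log2 fold change was -0.55, against 0.02 over all genes tested.

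Per kb of gene, control EZH2 was 45.9 CPM at Foxa2, 32.3 at Sox17, 10.9 at Pdx1, 1.9 at Prox1, 1.11 at Foxa3 and 0.482 at Hnf4a. The median of the genes tested was 0.953 CPM per kb and the 90th percentile 1.47, so that Foxa2, Sox17 and Pdx1 lay far above most genes and Hnf4a below the median. Prox1 is 52.8 kb long and its EZH2 domain covered 7.25% of it in control, so that a value per kb of the whole gene averages mostly over sequence outside the domain. Genes of the annotation overlap Hnf4a (Hnf4aos and Gm25881), Prox1 (Prox1os) and Pdx1 (Plut), and 21.2% to 21.9% of EZH2 reads were counted as ambiguous in the files.

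Sox17 had 211 and 208 EZH2 CPM in control and 126 and 77.8 in ex14D, a log2 fold change of -1.09 ± 0.19 (edgeR adjusted p = 0.0138). Foxa2 had 192 and 184 CPM in control and 148 and 108 in ex14D, a log2 fold change of -0.60 ± 0.13 (edgeR adjusted p = 0.0301). The control replicates of both genes lay within a few percent of each other, while the ex14D replicates were far apart and both below control. Pdx1 had 62.4 and 63.0 CPM in control and 43.4 and 30.8 in ex14D, a log2 fold change of -0.81 ± 0.14 (edgeR adjusted p = 0.0135). Prox1 had 97.2 and 103 CPM in control and 77.1 and 68.9 in ex14D, a log2 fold change of -0.50 ± 0.07 (edgeR adjusted p = 0.00723). The EZH2 domain covered 5.35% to 7.25% of Prox1 but all of Sox17, Foxa2 and Pdx1. The size of the Prox1 change is therefore not comparable with theirs. In all 4 genes ex14D replicate 2 was the lowest library.

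At Foxa3, the control libraries had 10.5 and 12.3 EZH2 CPM and the ex14D libraries 11.2 and 12.3, so that the groups overlapped (log2 fold change -0.01 ± 0.12, edgeR adjusted p = 0.983). Hnf4a had 33.2 and 30.5 CPM in control and 33.9 and 36.0 in ex14D (log2 fold change 0.10 ± 0.07, edgeR adjusted p = 0.592). Both ex14D CPM values were below both control values at 4 members, against 18.0% of genes tested, and above both at Hnf4a, against 35.6%. Leaving out control replicate 1 or control replicate 2 left 0 members and 0 genes lower, with adjusted p of 0.168 to 0.361 for the 4 genes, while leaving out either ex14D library kept all 4 calls. The 4 log2 fold changes stayed below 0 under each alternative, at -1.50 to -0.77 for Sox17, -0.87 to -0.38 for Foxa2, -1.09 to -0.57 for Pdx1 and -0.61 to -0.42 for Prox1.

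Sox7, Foxa1 and Hhex are listed at 0 in all 4 EZH2 count files, as are 10575 of the 24500 genes. They lie inside unbroken runs of 372, 662 and 266 genes listed at 0, spanning 68.7 Mb of chromosome 14, 83.1 Mb of chromosome 12 and 24.7 Mb of chromosome 19. All 3 genes nonetheless carried an EZH2 domain over the promoter in each of the 4 libraries, and 1675 of the 4090 genes with a domain in both control libraries are listed at 0. No EZH2 level or change is therefore given for these 3 genes, and the cause of the zeros was not tested.

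**Figure D3:**
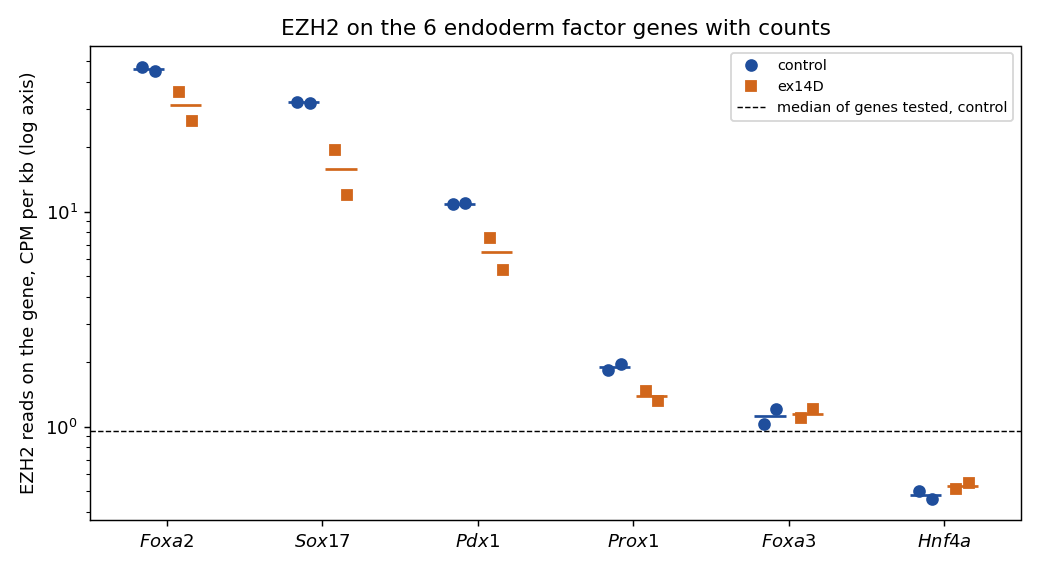
EZH2 reads on the 6 endoderm factor genes with counts, in CPM per kb of gene (log axis), for 2 control (blue circles) and 2 ex14D (orange squares) libraries, with bars at the means. The dashed line is the control median of all genes tested, 0.953. Foxa2, Sox17, Pdx1 and Prox1 have both ex14D points below both control points.

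The peaks and domains that the authors called per library placed both the mark and EZH2 over the same 7 promoters. Sox17, Sox7, Foxa1, Foxa2, Hhex, Prox1 and Pdx1 had an H3K27me3 peak over the 1 kb window in all 4 libraries and an EZH2 domain in all 4. Of the 24357 placed genes, 18.0% had a peak in both control libraries and 16.5% in both ex14D libraries, and 16.8% had a domain in both control libraries and 10.4% in both ex14D libraries. Foxa3 had a peak of 1.36 kb with a fold enrichment of 2.75, from 0.233 to 1.59 kb downstream of its start, and a domain of 1.0 kb, both only in control replicate 2. Hnf4a had neither at its most 5′ start. Its other RefSeq start, 40298 bases downstream, had a peak in control replicate 1 and in no other library. Requiring q under 0.001 left 4 of the 7 with a peak in both control libraries and all 7 in both ex14D libraries. Foxa2, Prox1 and Hhex dropped out in control, where their −log10 q in replicate 2 was 2.73, 2.24 and 2.06.

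Among the 7 genes with a peak in all 4 libraries, the peaks were widest at Foxa2 and Foxa1 and narrowest at Hhex. The Foxa2 peak measured 31.2 and 35.2 kb in control and 27.8 and 26.9 kb in ex14D, and the Foxa1 peak 23.5 and 24.5 kb in control and 23.7 and 22.5 kb in ex14D. The Hhex peak measured 5.1 and 6.42 kb in control and 6.0 and 5.38 kb in ex14D. The median peak of a library measured 1.6 to 2.17 kb, so that even the Hhex peak was wider than most. Pdx1 peaks measured 14.5 to 16.3 kb, Prox1 peaks 11.6 to 18.3 kb and Sox7 peaks 9.23 to 10.9 kb, and in these 3 genes the genotypes overlapped.

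The peaks covered Sox17, Foxa1, Foxa2 and Pdx1 from end to end in each H3K27me3 library. They covered 63.1% to 72.8% of Sox7, 46.1% to 63.9% of Hhex and 9.9% to 17.3% of Prox1. Beyond the member itself, the Foxa2 peak reached 9030622O22Rik, the Foxa1 peak Ttc6, the Prox1 peak Prox1os and the Pdx1 peak Plut, while those of Sox17, Sox7 and Hhex touched no other RefSeq gene. In control, for example, the Sox17 peak of replicate 1 spanned chr1:4487731-4502442 and the Foxa2 peak of replicate 1 chr2:148023445-148054610 (mm10), each across all exons and introns of the gene and into sequence on both sides.

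At Foxa2 and Sox17 both intervals were narrower in ex14D, while at Pdx1 and Prox1, where EZH2 reads were also lower, the peak widths overlapped. The Foxa2 peak ended 23.5 and 25 kb downstream of the start in control and 18.9 and 18.8 kb in ex14D, whereas its upstream edges, 7.64 and 10.2 kb in control and 8.89 and 8.08 kb in ex14D, overlapped. The EZH2 domain over Foxa2 ended 17.0 kb downstream in both control libraries and 9.97 and 12 kb downstream in ex14D. The gene itself ends 4.09 kb from the start, so that these edges lie beyond it. At Sox17 the peak began 5.09 and 4.44 kb upstream in control and 2.69 and 2.71 kb upstream in ex14D, and the EZH2 domain began 2.65 kb upstream in both control and 1.65 kb upstream in both ex14D libraries. The domain edges move in steps of 1 kb.

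Of the 3681 windows with a peak in all 4 libraries, 38.0% had both ex14D peaks narrower than both control peaks, as Sox17 and Foxa2 did. Of the 2532 windows with a domain in all 4, 44.2% had both ex14D domains narrower, as Sox17, Foxa1 and Foxa2 did. Domain widths were 20.5 kb in control and 14.5 kb in ex14D at Foxa2, 20.5 and 17.5 kb at Foxa1, 11.5 and 9.5 kb at Sox17, 13 and 11 kb at Pdx1, 10 and 9.5 kb at Prox1, 4.0 and 2.5 kb at Hhex and 6.0 and 6.0 kb at Sox7, each a mean of 2 libraries. Among the 7 members with intervals throughout, 2 and 3 were narrower, shares that are not above those of all genes. The authors' fold enrichment, a value of the peak caller over the whole interval, was higher in both ex14D libraries at 2 of the 7 genes, Foxa2 (11 and 2.22 in control, 13.7 and 16.8 in ex14D) and Sox17 (5.08 and 4.78, then 8.94 and 8.09). At Sox7, whose promoter counts rose relative to other genes, it was lower in both (7.54 and 6.02, then 4.47 and 5.62). The other 4 overlapped, with replicates as far apart as 21.5 and 4.41 at Hhex in ex14D. Over all peaks of a library the median fold enrichment was 3.3 and 3.04 in control and 4.77 and 5.5 in ex14D. Higher values in ex14D were thus not particular to Foxa2 and Sox17. The share of all genes with higher values in both ex14D libraries was not computed.

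**Figure D4:**
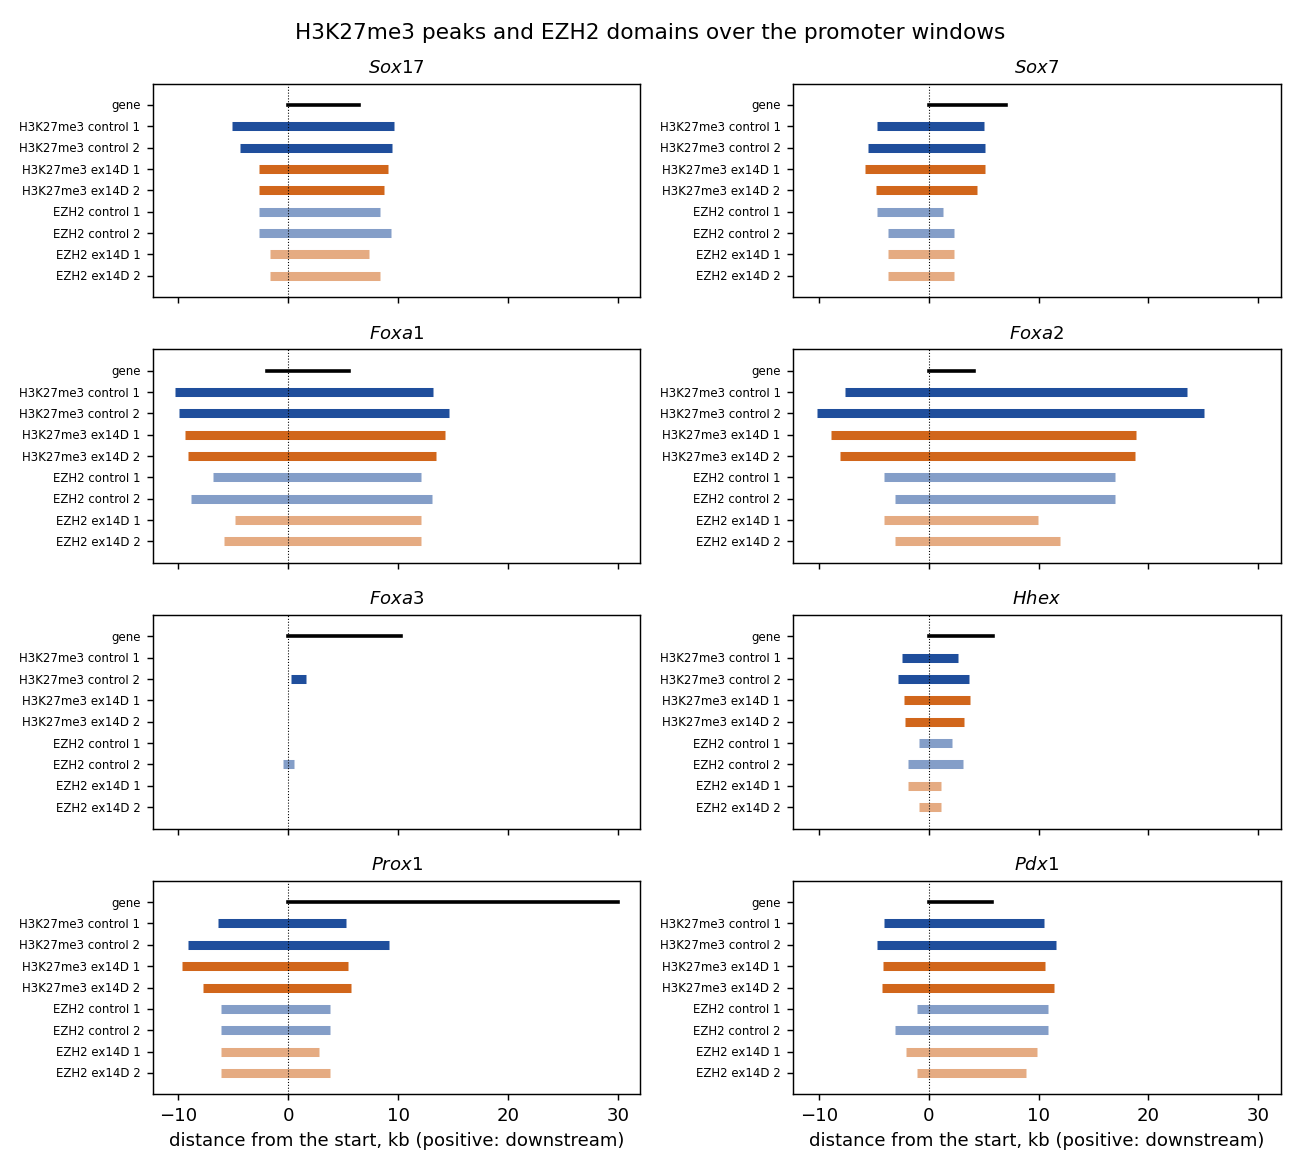
Extent of H3K27me3 peaks (dark bars) and EZH2 domains (pale bars) over the promoter windows of 8 genes, by library, in kb from the start of transcription. Blue is control, orange is ex14D, and the black line is the gene, cut at 30 kb for Prox1. At Foxa2 the ex14D bars stop short of the control bars downstream, and Hnf4a, with no interval, is left out.

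The 9 promoters differed widely in CpG content, which the choice of genes did not use. The 1 kb window held 124 CpG at Hhex, 97 at Foxa1, 84 at Sox7, 68 at Prox1, 52 at Sox17, 52 at Foxa3, 46 at Pdx1, 41 at Foxa2 and 17 at Hnf4a. The median of all placed genes was 40, with quartiles of 12 and 70, and that of the 9 genes was 52. The richest window, Hhex, at the 98.0th percentile, had a control mean of 136 CPM against 418 at Foxa2, whose CpG count was close to the median of all genes. Foxa3 and Sox17 had the same CpG count and control means of 41.1 and 416 CPM. In the tenth of all genes with 52 to 64 CpG the median control level was 9.32 CPM and the 90th percentile 164, so that Sox17 exceeded the latter. Over all genes, that 90th percentile rose from 17.3 CPM in the tenth with the fewest CpG to 235 in the tenth with the most.

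**Figure D5:**
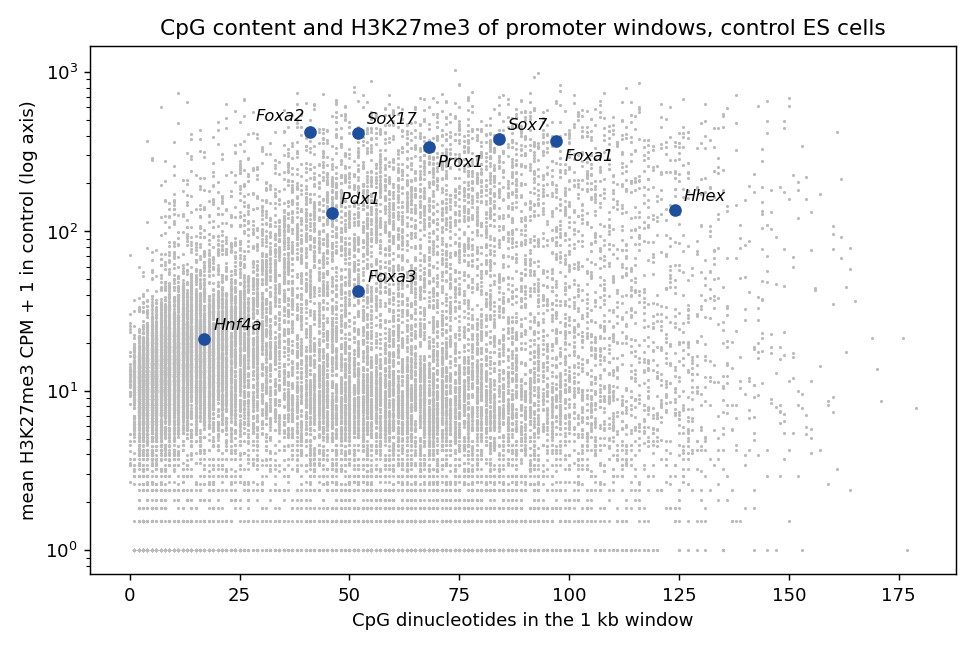
CpG dinucleotides in the 1 kb window against mean control H3K27me3 CPM + 1 (log axis) for all placed genes (grey) and the 9 endoderm factors (blue). Sox17 and Foxa3, both at 52 CpG, lie far apart in the mark, at 416 and 41.1 CPM, and Hhex lies furthest right, at 124.

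The promoters whose 6 H3K27me3 and input values were nearest to the median profile of the 9 genes, by Euclidean distance of log2(CPM + 1), were Adra2c at 0.242, Chrdl2 at 0.299 and Gm11538 at 0.299. Adra2c had 367 and 341 CPM in control and 439 and 377 in ex14D.

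Other genes of the endoderm programme were read as lists, with counts of edgeR calls beside the shares of all genes given above. Among 18 later gut organ regulators, 11 were higher and 0 lower in H3K27me3 in ex14D (13 and 0 at unadjusted p under 0.05, 11 and 0 by DESeq2), with a median log2 fold change of 0.91. The largest rise was at Nkx2-2, a regulator of pancreatic islets, with 400 and 382 CPM in control and 857 and 1030 in ex14D (log2 fold change 1.72). EZH2 reads were lower at 9 of the 12 tested and higher at 0 (11 and 0 unadjusted, 8 and 0 by DESeq2), with the largest fall at Mnx1, a pancreas and motor neuron factor, by 1.27 on the log2 scale.

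In a list of 5 other early endoderm factors and relatives of such factors, H3K27me3 was higher at 3 (Gata4, Gata5 and Gata6) and lower at 0 (5 and 0 unadjusted, 3 and 0 by DESeq2). Gata6 rose most, by a log2 fold change of 1.37 from 30.3 and 27.7 CPM to 59.3 and 50.5. Its control and ex14D inputs were only 0.0 and 2.4 CPM, so these levels are not comparable with those of other genes. EZH2 was lower at Sox18, a SoxF relative of Sox17 and Sox7, with a log2 fold change of -1.30, and at no other of the 3 tested, with 0 higher (2 and 0 unadjusted, 1 and 0 by DESeq2). Of 13 tested genes among 16 Nodal pathway and mesendoderm regulators, which act upstream of endoderm, 4 (Eomes, Gsc, Lhx1 and Otx2) were higher and 0 lower in H3K27me3 (5 and 2 unadjusted, 4 and 0 by DESeq2), with the largest rise at Otx2 (1.52). EZH2 was lower at 2 of 9, Eomes and Mixl1, and higher at 0 (3 and 0 unadjusted, 2 and 0 by DESeq2), with the largest fall at Mixl1 (-1.31).

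The 17 tested of 19 endoderm products, such as albumin and alpha-fetoprotein, had 0 calls in H3K27me3 in either direction (2 higher and 0 lower unadjusted, 0 by DESeq2) and a median log2 fold change of 0.06. EZH2 was lower at 1 of 14, the basement membrane collagen Col4a1, by 0.27 on the log2 scale, and higher at 0 (2 and 1 unadjusted, 0 and 0 by DESeq2). In control H3K27me3 libraries their median level was 13.5 and 18.1 CPM, against 381 and 388 for the later gut organ regulators.

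For markers of other lineages, 10 of 14 were higher and 0 lower in H3K27me3 (10 and 0 unadjusted, 10 and 0 by DESeq2), led by Olig2 (1.58), and all 7 tested were lower in EZH2 (7 unadjusted, 6 by DESeq2, 0 higher in each), led by Pax6 (-1.25). Cdx2 is in this list and among the later gut organ regulators. Of 7 tested ES cell markers, 2 were lower and 0 higher in H3K27me3 (2 and 1 unadjusted, 0 and 0 by DESeq2). They were Klf4, at 156 and 108 CPM in control and 53.8 and 50.5 in ex14D, and Klf2, with a log2 fold change of -2.30, whose control values of 121 and 22.4 CPM differed between replicates by more than the second differed from ex14D, at 7.58 and 12.8. EZH2 was lower at 1 of 5, Klf4 (-1.45), and higher at 0 (1 and 0 unadjusted, 1 and 0 by DESeq2). Promoter H3K27me3 that was higher relative to other genes, with lower EZH2, was thus seen in lists of other lineages as well as in the endoderm factors, and no difference between the lists was tested.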

How the data were processed

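The deposited files hold raw counts of reads per gene, made by the authors with HTSeq from reads aligned to mm10, and peaks and domains called per library. Per the labels and methods, Trimmomatic, Bowtie2, MACS2 and ChIPseeker were used and promoter reads were counted in 1 kb windows on the most 5′ start, with hiddenDomains for domains. Versions and the control of the peak calls are not given in the sources used here. The MACS2 files of the authors give fold enrichment as a ratio and −log10 p and q. The methods give this window for reads at promoters without naming an antibody, but the deposited EZH2 counts rose with gene length across genes (Spearman 0.88 to 0.91, against 0.15 to 0.16 for H3K27me3) and do not look like counts in a fixed window. H3K27me3 hiddenDomains files were not used, since 143 to 270 of their domains a library end more than 1 kb past the end of a GRCm38 chromosome, against 0 for EZH2.

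Of the reads in the files, 1.9% to 7.58% (H3K27me3 and input) and 43.9% to 44.3% (EZH2) were on genes, and rows that name no gene were left out. Counts were tested with edgeR 4.0.16 in R 4.3.3 (quasi-likelihood, TMM, filterByExpr, Benjamini-Hochberg adjustment over all genes tested, threshold 0.05, two-sided) on the 4 libraries of an antibody, or on 4 H3K27me3 and 2 input libraries with the inputs as 1 group. The script was tested on simulated data. Alternatives were DESeq2 1.42.0, its size factors, other library sizes, no filter, a replicate block and leaving out each library. Replicates differed by more than sampling noise (chi-square per degree of freedom 1.48 to 3.95). Windows, CpG counts and overlaps came from RefSeq starts on GRCm38, which placed 24357 of 24500 genes, and may differ from the authors' windows. Sequences are from the RefSeq promoter table, which has no entry used here for Sox17 and Sox7. Intervals were matched to the window by 1 bp or more. Named were all 9 members, the largest called rise and fall of each other list and antibody, and the 3 promoters most like the members. Other genes (the called Gata, Nodal pathway and Klf genes, and genes under the peaks) were named after their values were seen. The members and lists were chosen with earlier results of these data known.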

Additional observations from a re-analysis of the deposited data

How the results depend on the processing

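Foxa2 kept its direction and call under each alternative for H3K27me3. Over all single members, 261 alternative values kept direction and side of the threshold, 31 lost the call, 3 gained it and 8 changed sign. With library sizes over gene rows only, 3 members were higher and 1 lower in H3K27me3 and 398 genes higher and 2130 lower. Over input, that scaling left 1 member and 14258 genes lower and 3310 higher in control, and 1 member and 16158 genes lower and 2646 higher in ex14D. For EZH2 it gave 47 genes higher, and all counted reads gave 33. DESeq2 gave 202 genes lower in H3K27me3, 0 higher in EZH2, and 873 and 52 lower than input in control and ex14D. DESeq2 size factors gave 2 genes higher in EZH2. In DESeq2, 8656 of 14883 H3K27me3 genes had no adjusted p. Requiring q under 0.001 left 4 members with a peak in both control libraries, without Foxa2, and 7 in both ex14D libraries.

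The values that changed sign were small in most cases. Hnf4a H3K27me3 ran from -1.195 without ex14D replicate 2 to 0.085 without ex14D replicate 1. Foxa3 EZH2 was 0.033 with gene rows only and 0.022 with all counted reads, and ran from -0.106 without control replicate 1 to 0.117 without control replicate 2 (0.028 without ex14D replicate 1). Over input, with gene rows only, Hnf4a in control was -1.10 and Foxa3 in ex14D -0.66, and Hnf4a in ex14D ran from -0.877 without ex14D replicate 2 to 0.41 without ex14D replicate 1. The cause was not tested.

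Leaving out each library in turn leaves 1 sample in a group, which is then assumed to vary like the other group. For H3K27me3 this gave 1 to 4 members higher, 0 to 1 lower, 183 to 797 genes higher and 55 to 610 lower. For EZH2 it gave 0 to 4 members and 0 to 1561 genes lower, and 0 to 81 genes higher. Over input, 2091 to 4364 genes were lower in control and 1046 to 4081 in ex14D. Members with an interval in both libraries of a genotype ranged from 7 to 8.

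Same-numbered libraries share only a number: their deviations correlated at -0.104 for H3K27me3 and -0.0317 for EZH2. With the replicate block, 6 members were higher in H3K27me3 (765 genes higher, 411 lower), and 4 were lower in EZH2 (852 genes lower, 3 higher). A crossed block, chosen after seeing the data, gave 802 genes lower and 1183 higher in H3K27me3.

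Depth limits Hnf4a and Foxa3, with 9 to 47 H3K27me3 reads a library.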
